A study of Drosophila melanogaster with 2 samples.

Results

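The genes described here break down tryptophan and purines and build the eye pigments that derive from them. They were taken by symbol from the annotated table of the arrays as v, cn, cd, st, w, bw, ry, ma-l, Uro and se, and ma-l stood there under its current symbol mal (CG1692). These 10 genes are covered by 11 of the 18952 probe sets on the Affymetrix Drosophila 2 GeneChip, since bw has 2 and each of the others has 1. RNA of Ck1alphaRNAi larvae (Dcg-Gal4 crossed to UAS-Ck1alphaRNAi) was hybridized to 1 array and RNA of control larvae (Dcg-Gal4 crossed to w1118) to the other, each from a pool of 20 whole, feeding mid-third instar larvae grown at 25°C. Both groups carry the driver Dcg-Gal4, which is known to be active in blood cells and the fat body, so the knockdown was not aimed at the Malpighian tubules or the eye discs. The labels give 6 days of culture for both, while the paper's methods start the Ck1alphaRNAi cultures 1 day ahead of the controls because of developmental delay. Neither group has a replicate, so no test was possible and every difference given is between these 2 pools.

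Tryptophan is opened by the dioxygenase Vermilion (v), freed of its formyl group by kynurenine formamidase, and hydroxylated by Cinnabar (cn) to 3-hydroxykynurenine, the precursor of the brown ommochromes, for which the haem peroxidase Cardinal (cd) has been described in the last step. White (w) is an ABCG transporter subunit that pairs with Scarlet (st) for ommochrome precursors and with Brown (bw) for precursors of the red pteridines. Sepia (se), an omega class glutathione transferase, makes an intermediate of the red drosopterins. Rosy (ry) is xanthine dehydrogenase, which oxidizes purines to urate, and Maroon-like (mal) activates its molybdenum cofactor. Urate oxidase (Uro) carries urate on towards allantoin and is known as a gene of the Malpighian tubules, the insect kidney, where it is active late in larval life and in adults. Several of these genes also act outside the eye, in the fat body and the Malpighian tubules.

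The values are linear MAS5 intensities, called signals, and both arrays had a trimmed mean of 500. Detected here means that either array reached a signal of 100. As a measure of background, 17 tag controls, which carry artificial sequences, reached at most 53.3 on the Ck1alphaRNAi array, against 33.1 on the control array. The log2 ratios of detected probe sets of the same gene had an SD of 0.41 (1.33-fold, 433 genes). The 9 probe sets of the spike-in controls had ratios of 0.896 to 1.17 between the arrays. Both leave out the spread between larval pools, and the SD can also hold differences between transcripts of a gene. Signals of different probe sets are not on a common scale, so each gene is compared only with itself. Ck1alpha itself, the silenced gene, read 2055 in Ck1alphaRNAi larvae against 2665 in control larvae, a ratio of 0.771 in whole animals. The labels give the larvae as female, yet all 11 testis transcripts measured reached a signal of 100 on at least 1 array, and all 11 were dimmer in Ck1alphaRNAi larvae.

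Of the 10 genes, 6 were detected, namely v, w, st, ry, mal and Uro. Uro was the only detected gene among them that was at least 2-fold higher in Ck1alphaRNAi larvae, and v the only one at least 2-fold lower, while w, st, ry and mal had ratios from 1.38 to 1.82. Over all 10154 detected probe sets, 2.84% were 2-fold higher or more and 6.89% were 2-fold lower or more. With 1 gene of 6 in each direction, the counts describe Uro and v and not the set. The median log2 ratio of the 6 detected genes was 0.65, beside -0.02 over all 8954 detected named genes, and 5 of the 6 had the higher signal in Ck1alphaRNAi larvae. The other 4 genes, cn, cd, bw and se, did not reach a signal of 100 on either array.

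**Figure D1:**
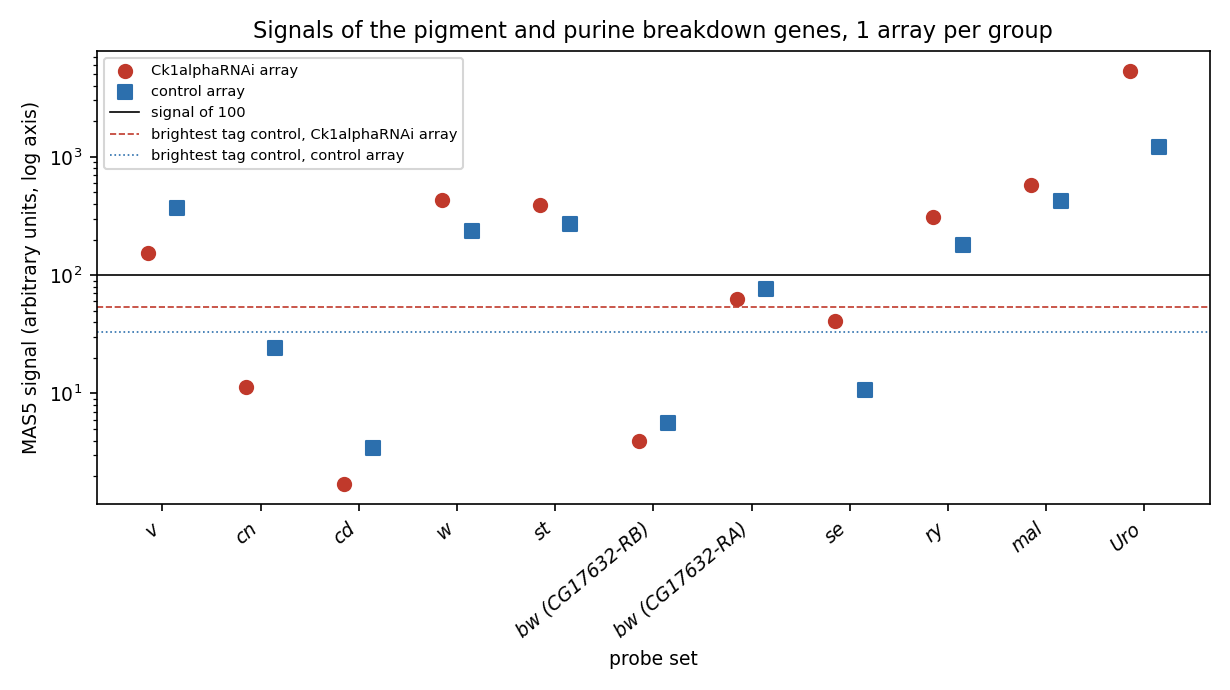
MAS5 signal (log axis) of each of the 11 probe sets (circles, Ck1alphaRNAi array; squares, control array), with lines at a signal of 100 and at the brightest tag control of each array. Uro lies far apart on the arrays at 5280 (Ck1alphaRNAi) and 1218 (control), v lies the other way at 153 (Ck1alphaRNAi) and 371 (control), and the probe sets of cn, cd, bw and se lie under 100.

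The largest difference among the detected genes of the set was that of a single gene of purine breakdown, Uro. Uro read 5280 in Ck1alphaRNAi larvae against 1218 in control larvae, a ratio of 4.33 (log2 ratio 2.12). Of the 10154 detected probe sets 100, Uro counted, had a ratio at least as high, which is 0.985% of them. ry, which makes the urate that Uro consumes, read 309 in Ck1alphaRNAi larvae against 182 in control larvae, a ratio of 1.70. mal, whose product that enzyme needs, read 583 in Ck1alphaRNAi larvae against 421 in control larvae, a ratio of 1.38. Each of the 3 genes was thus brighter on the Ck1alphaRNAi array. Ratios as high as that of ry were found for 4.67% of the detected probe sets, and as high as that of mal for 10.6%. The log2 ratio of mal, 0.47, was close to the SD between probe sets of a gene.

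**Figure D2:**
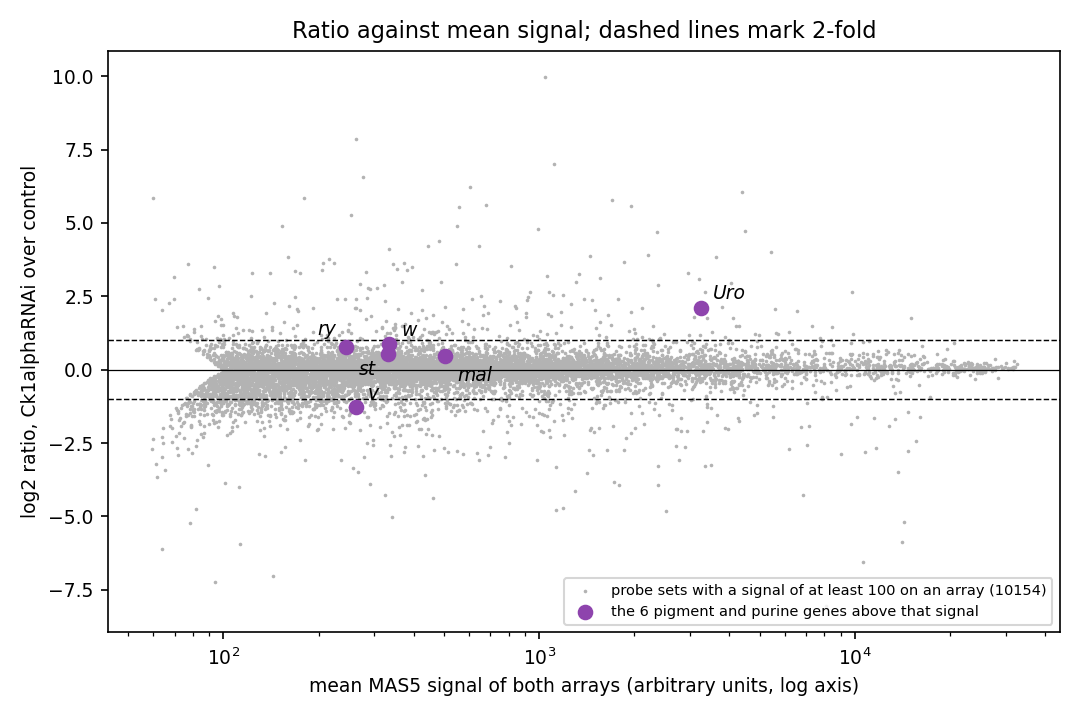
Log2 ratio of Ck1alphaRNAi over control (vertical axis) against the mean MAS5 signal of both arrays (log axis) for the 10154 detected probe sets (grey) and the 6 detected genes (purple), with dashed lines at 2-fold. Uro lies above the upper line at 2.12, v below the lower line at -1.28, and w, st, ry and mal between the lines on the upper side.

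The other genes of purine breakdown and of the molybdenum cofactor did not move as far as Uro. Of 17 listed genes 14 had a probe set of their own, the other 3 (cin and the 2 Mocs2 genes) being measured only by probe sets that carry a second gene. None of the 12 detected was 2-fold higher or lower, beside 2.83% of all detected named genes that were higher and 6.95% that were lower, and 8 of the 12 had the higher signal in Ck1alphaRNAi larvae, with a median log2 ratio of 0.28. AMPdeam, which turns AMP into IMP, read 1784 in Ck1alphaRNAi larvae against 3107 in control larvae, a ratio of 0.574. Its 4 probe sets all had the lower signal in Ck1alphaRNAi larvae but differed in size, with ratios of 0.292 to 0.938. veil, which encodes an ecto-nucleotidase, read 2577 in Ck1alphaRNAi larvae against 1745 in control larvae. The aldehyde oxidase gene AOX1, named here after its value was seen, had the highest ratio among the detected genes of the list, 1.86 (2627 in Ck1alphaRNAi larvae, 1416 in control larvae). Aldehyde oxidases use the same sulfurated cofactor as xanthine dehydrogenase. AOX3, at 1.17, and AOX2, at 0.816, lay nearer to 1, and AOX4 was below the tag controls on both arrays, at 29.4 in Ck1alphaRNAi larvae against 14.8 in control larvae.

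On the tryptophan side the difference ran the other way. v read 153 in Ck1alphaRNAi larvae against 371 in control larvae, a ratio of 0.412 (log2 ratio -1.28), and 3.95% of the detected probe sets were at least as low. KFase, the formamidase of the next step, read 244 in Ck1alphaRNAi larvae against 632 in control larvae, a ratio of 0.387. v and KFase, which lead from tryptophan to kynurenine, were thus both 2-fold lower or more. Hn, the phenylalanine hydroxylase gene Henna, whose enzyme has also been described to act on tryptophan, read 1226 in Ck1alphaRNAi larvae against 2920 in control larvae, a ratio of 0.420. The transporter-like eye colour gene kar read 271 in Ck1alphaRNAi larvae against 497 in control larvae, a ratio of 0.545. Kyat (CG6950), which encodes a kynurenine aminotransferase, read 2134 in Ck1alphaRNAi larvae against 1833 in control larvae. Among these 4 detected genes 2 passed 2-fold downwards and none upwards, beside 6.95% and 2.83% of all detected named genes, and the median log2 ratio was -1.06. The tryptophan hydroxylase gene Trhn (Trh on the array) stayed under 100 on both arrays, at 62.5 in Ck1alphaRNAi larvae against 52.7 in control larvae.

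The later ommochrome enzymes were not measurable in these larvae. cn read 11.3 in Ck1alphaRNAi larvae against 24.4 in control larvae. cd read 1.72 in Ck1alphaRNAi larvae against 3.45 in control larvae. All 4 values lie below the brightest tag control of their array, so no fold is given for either gene. Eye pigment is laid down in the pupa. Of 10 eye disc and photoreceptor markers 6 were detected. The photoreceptor gene ninaE, which encodes the main rhodopsin of the compound eye, was not, at 35.2 in Ck1alphaRNAi larvae against 27.3 in control larvae. Why cn and cd were dim was not tested.

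The transporter genes w and st were brighter in Ck1alphaRNAi larvae, both short of 2-fold. w read 432 in Ck1alphaRNAi larvae against 237 in control larvae, a ratio of 1.82 (log2 ratio 0.87), which 3.62% of the detected probe sets reached. st read 393 in Ck1alphaRNAi larvae against 270 in control larvae, a ratio of 1.45 (log2 ratio 0.54), which 8.65% of the detected probe sets reached. The log2 ratio of st was not far above the SD of 0.41 between probe sets of a gene. The 2 probe sets of bw stayed under 100 on both arrays. The brighter of them read 63.0 in Ck1alphaRNAi larvae against 75.9 in control larvae, and the other 3.98 in Ck1alphaRNAi larvae against 5.63 in control larvae, below the tag controls. No direction is given for bw, whose probe sets are dim. The signs of both ratios turned under loess scaling, but that curve was fitted only to probe sets with a mean signal of at least 100.

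For w and v the crosses themselves differ. w1118 is a w mutant strain, and transgenes such as Dcg-Gal4 and UAS-Ck1alphaRNAi are commonly marked with a copy of w or v. Which markers these carry, and the w and v alleles of the UAS-Ck1alphaRNAi stock, were not found in the labels or the paper's methods. For these 2 genes strain or transgene cannot be told apart from knockdown, and whether the probe set of either also reads a marker copy was not tested.

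Relatives of w, st and bw were mostly near control. Of 11 other ABCG transporter genes, all detected, none was 2-fold higher and 1 was 2-fold lower, a count near the 2.83% and 6.95% of all detected named genes, around a median log2 ratio of 0.01. That gene was CG9664, at 108 in Ck1alphaRNAi larvae against 220 in control larvae (ratio 0.491), and it was short of 2-fold after quantile normalization, loess or a pseudocount. CG3164 read 4291 in Ck1alphaRNAi larvae against 3980 in control larvae, and CG5853 2117 in Ck1alphaRNAi larvae against 1979 in control larvae. The genes that build the pigment granule, a lysosome-related organelle, were likewise near control. None of 12 detected granule and trafficking genes was 2-fold changed, and their median log2 ratio was 0.04. Rab32 (lightoid), a small GTPase of the granule, read 1212 in Ck1alphaRNAi larvae against 1970 in control larvae, the lowest ratio among the detected genes of that list at 0.616. lt (light), a subunit of the vacuolar sorting complex, read 1055 in Ck1alphaRNAi larvae against 1043 in control larvae.

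se was near background on both arrays. Its probe set read 40.9 in Ck1alphaRNAi larvae against 10.7 in control larvae, each below the brightest tag control of its array, so no fold is given. The other 3 omega class glutathione transferases were detected, and none was 2-fold changed. Over all detected named genes, 2.83% were 2-fold higher or more and 6.95% were 2-fold lower or more. GstO1 had the lowest ratio of the 3, 0.593 (487 in Ck1alphaRNAi larvae, 821 in control larvae). GstO3 read 4028 in Ck1alphaRNAi larvae against 4036 in control larvae, and GstO2 2639 in Ck1alphaRNAi larvae against 2112 in control larvae.

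The pteridine pathway supplies the red pigments and the hydroxylase cofactor tetrahydrobiopterin, and the genes of its first 2 enzymes were lower. Pu (Punch), the GTP cyclohydrolase that starts the pathway, read 411 in Ck1alphaRNAi larvae against 1243 in control larvae, a ratio of 0.330. pr (purple), the pyruvoyl-tetrahydropterin synthase of the next step, read 910 in Ck1alphaRNAi larvae against 2266 in control larvae, a ratio of 0.401. These 2 of 7 detected genes were at least 2-fold lower (6.95% of all detected named genes), none was 2-fold higher (2.83%), and the median log2 ratio was -0.19. cl (clot), whose mutants also lack drosopterin, read 3420 in Ck1alphaRNAi larvae against 2176 in control larvae, the highest ratio of the list at 1.57. Pcd, which recycles the cofactor, read 782 in Ck1alphaRNAi larvae against 895 in control larvae.

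Purine synthesis, which feeds both the pteridines and urate, held the lowest measured ratio of the 7 lists. Prat2, a form of the amidotransferase that starts the route, read 31.2 in Ck1alphaRNAi larvae against 240 in control larvae. The Ck1alphaRNAi signal lies below the brightest tag control of that array, so Prat2 was at least 4.50-fold lower against that level. Its paralogue Prat read 373 in Ck1alphaRNAi larvae against 431 in control larvae. Paics (ade5), for a middle step of the route, read 1029 in Ck1alphaRNAi larvae against 2863 in control larvae, a ratio of 0.359. Of the 9 detected genes 2 passed 2-fold downwards (6.95% of all detected named genes) and none upwards (2.83%), and the median log2 ratio was -0.21. Adss, which makes the AMP precursor adenylosuccinate, read 8241 in Ck1alphaRNAi larvae against 6573 in control larvae, and ras (raspberry), the IMP dehydrogenase gene, 1756 in Ck1alphaRNAi larvae against 2061 in control larvae.

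**Figure D3:**
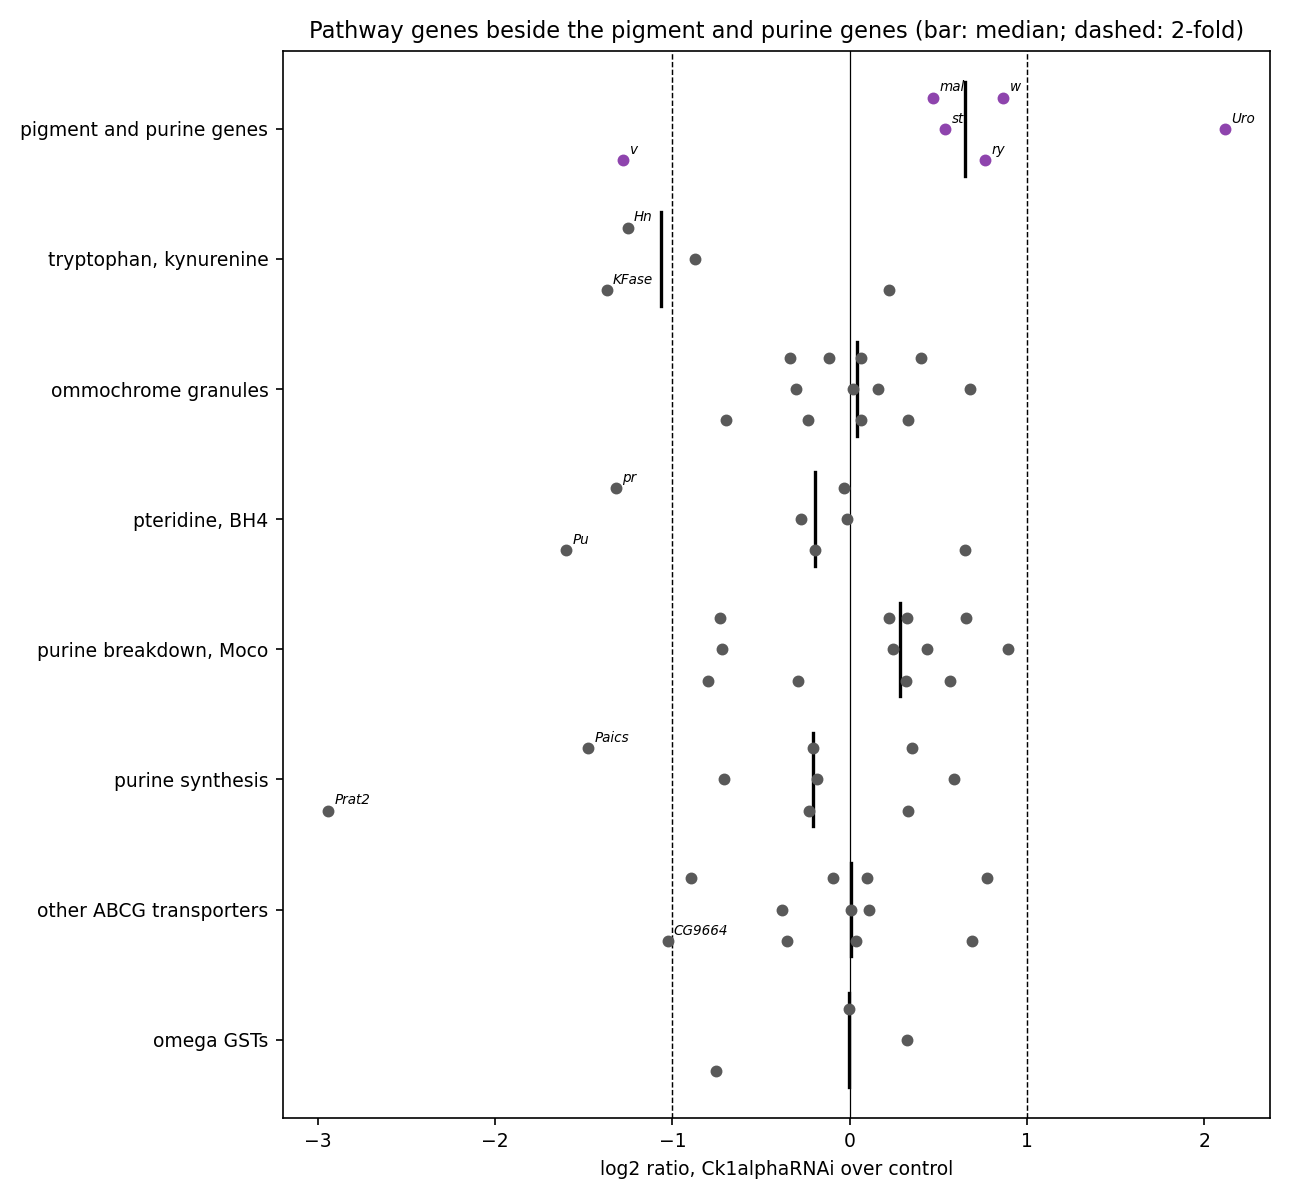
Log2 ratio of Ck1alphaRNAi over control for the 6 detected pigment and purine genes (purple) and for the detected genes of 7 lists around them (grey), 1 point per gene, with a bar at each median and dashed lines at 2-fold. v lies on the left with KFase, Hn, Pu, pr, Paics and Prat2, and Uro alone lies right of the upper 2-fold line. Prat2 is drawn at its measured ratio, although its Ck1alphaRNAi signal lies below the tag controls.

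Markers of the tissues that express these genes were read from the same arrays. In whole larvae, fewer cells of a type, less RNA per cell and a difference in stage cannot be told apart. Malpighian tubule markers stayed near control. Of 11 listed, 10 were detected. Among these, 1 was at least 2-fold higher (2.83% of all detected named genes) and none was 2-fold lower (6.95%). The higher one was the water channel gene Drip, at 1339 in Ck1alphaRNAi larvae against 656 in control larvae. The median log2 ratio of the 10 tubule markers was 0.23, beside -0.02 over all detected named genes. Of the 10, 8 had the higher signal in Ck1alphaRNAi larvae, beside the ratio of 4.33 for Uro. The summed signal of all 11 was 10550 in Ck1alphaRNAi larvae and 10582 in control larvae, but such a sum is weighted by its brightest probe sets. The brightest here, Alp4, read 3622 in Ck1alphaRNAi larvae against 5170 in control larvae. All 9 fat body markers were at least 2-fold lower (6.95% of all detected named genes), with ratios of 0.0038 to 0.428. Their summed signal, weighted in the same way, was 12139 in Ck1alphaRNAi larvae against 134005 in control larvae. The lipoprotein gene apolpp was among them at 7994 in Ck1alphaRNAi larvae against 21504 in control larvae. v and Hn, which the fat body is known to express, had ratios of 0.412 and 0.420. Of the fat body markers, only those nearest to control, apolpp at 0.372 and Mtp at 0.428, had ratios of that size. All the other fat body markers had ratios of 0.126 (AkhR) or lower. The part of the fat body in the values of v, KFase and Hn was not tested.

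**Figure D4:**
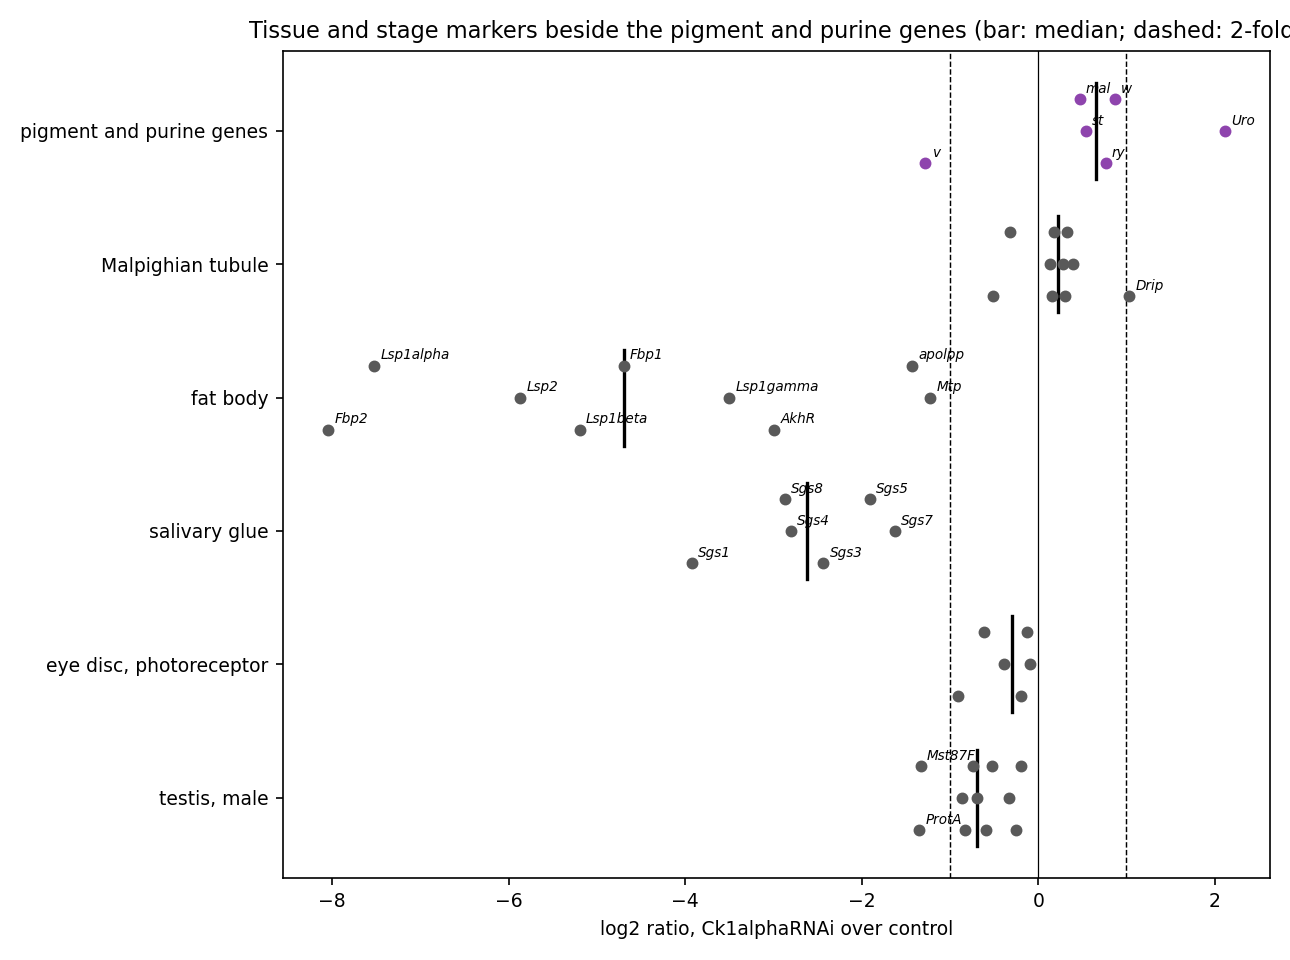
Log2 ratio of Ck1alphaRNAi over control for the 6 detected pigment and purine genes (purple) and for detected markers of 5 tissues or stages (grey), 1 point per gene, with a bar at each median and dashed lines at 2-fold. All 9 fat body and 6 salivary glue genes lie left of the lower 2-fold line, while the Malpighian tubule markers lie around 0 with only Drip past the upper line.

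All 6 salivary glue genes, which are turned on in the course of the third instar, also passed 2-fold downwards. That was so of 6.95% of all detected named genes, and the median log2 ratio of the 6 was -2.62. Uro was higher in Ck1alphaRNAi larvae, and whether stage had a part in its value, in either direction, was not tested. For every gene on these arrays, a difference in stage between the pools cannot be told apart from the knockdown. Eye disc and photoreceptor markers, of which 6 of 10 were detected, had a median log2 ratio of -0.29 and none past 2-fold. The testis transcripts had a median of -0.69, with 2 of 11 at least 2-fold lower and none 2-fold higher. Over all detected named genes, 6.95% were 2-fold lower or more and 2.83% were 2-fold higher or more.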

How the data were processed

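RNA of 20 pooled whole larvae per group was hybridized to Affymetrix Drosophila 2 GeneChips, with a single array for each, and this number limits the precision. The authors deposited MAS5 signal intensity per probe set, and the labels' processing notes name MAS5, version 5. Another deposited table held equal intensities for all 18952 probe sets, to within a relative tolerance of 1e-09. The authors' deposited fold change column, a ratio of Ck1alphaRNAi over control, was not used. Detection calls were not used here. The labels name Trizol for the extraction and the paper's methods a kit.

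Symbols of 14313 probe sets led to 1 gene through the RefSeq table (Release 6 plus ISO1 MT), and 684 that carried several genes were left unnamed. No build is named for the arrays' annotation in the sources used, so no coordinates are printed. For a gene of the lists with several probe sets, the one with the highest mean signal was used. Ratios were taken without pseudocount or rescaling, and a change was counted at 2-fold where either array reached a signal of 100. The genes and lists were chosen with earlier results of these data known. The level of the tag controls served as background, and ratios below it on both arrays are not given as folds. Named are all 10 genes and, from each pathway list, the genes past 2-fold (up to 4) and up to 2 others of highest mean signal. AOX1, AOX2, AOX3, AOX4, Trhn, Prat, Sptr, GstO1 and the named tissue markers lie outside that rule and were chosen after their values were seen. Trh and Trhn, which had been listed as separate genes, were merged once the files showed them to be the same gene. The scaling steps were tested on simulated data. Alternatives were median centring, quantile normalization, loess (span 0.3), a pseudocount of 16, floors of 50, 200 and none, the median over probe sets, leaving out shared probe sets, and the other table. Python 3.11.15, numpy 2.4.6, pandas 2.3.3, statsmodels 0.14.6 and matplotlib 3.10.9 were used.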

Additional observations from a re-analysis of the deposited data

How the results depend on the processing

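Over the main setting and its alternatives of scaling, pseudocount and table, the ratio of Uro stayed between 4.18 and 4.36 and that of v between 0.412 and 0.443. The ratios of w (1.77 to 1.89), ry (1.64 to 1.82), st (1.43 to 1.51) and mal (1.37 to 1.40) stayed above 1 and short of 2-fold. With no filter on low signals, 2 of the 11 probe sets passed 2-fold upwards and 2 downwards, the additions being se and cn, both below the tag controls. The log2 ratios of these dim probe sets moved most. With loess they were -0.31 for cn, -0.20 for cd, 2.74 for se and 0.30 and 0.11 for the probe sets of bw, and with a pseudocount of 16 they were -0.57 for cn, -0.13 for cd and 1.09 for se. Among the other ABCG transporters 0 genes were 2-fold lower after quantile normalization, loess or the pseudocount. The other counts stayed within 1.5 times and the medians within the SD between probe sets of a gene. No paired analysis was possible because each group has 1 array, and for the same reason no replicate could be left out.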

Other observations

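Outside the lists, and chosen after their values were seen, were some of the genes that the arrays' annotation ties to these pathways. CG12116, which it credits with sepiapterin reductase activity by sequence similarity, read 2036 in Ck1alphaRNAi larvae against 12026 in control larvae, a ratio of 0.169. Of the 10154 detected probe sets 82, CG12116 counted, were at least as low. Sptr, which makes the known sepiapterin reductase of the tetrahydrobiopterin pathway, read 286 in Ck1alphaRNAi larvae against 289 in control larvae, and Es2, the remaining gene with that annotation, 180 in Ck1alphaRNAi larvae against 229 in control larvae. CG6628, annotated like cd with peroxidase activity and ommochrome synthesis, was under 100 on both arrays, at 24.5 in Ck1alphaRNAi larvae and 54.6 in control larvae.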
